A study of Mus musculus with 2 samples.

Results

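The proteasome subunit genes described here are the protein-coding mouse genes of GENCODE M21 whose symbols start with Psma, Psmb, Psmc, Psmd, Psme, Psmf or Psmg. There are 50 of them, among 16674 annotated genes with reads in either library. At least 1 read fell on 49 of the 50 in replicate 1 and on 46 in replicate 2. They were measured by long-read RNA-seq, in which a whole cDNA molecule is read at once, in the adrenal gland of C57BL/6J mice. The study has a single untreated group with 2 libraries, replicate 1 and replicate 2. The libraries were made from different biosamples that share 1 donor record, so whether these are separate animals is not stated. Tests set the difference between these libraries against counting error only. The labels describe wild-type females in a text field, leave the sex field uncollected and give the age as unknown. With no second condition, the comparison is between the libraries themselves.

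The proteasome degrades proteins tagged with ubiquitin. Its core particle is a barrel of outer alpha rings and inner beta rings, and the catalytic sites sit inside, on the beta1, beta2 and beta5 subunits. The regulatory particle caps the barrel: an ATPase ring unfolds the substrate, and the non-ATPase subunits bind ubiquitin, remove it and hold the cap together. Interferon induces beta subunits that replace the catalytic ones in the immunoproteasome, whose peptides feed class I antigen presentation. The name rule also takes in alternative caps (activators), an inhibitor, chaperones of assembly, tissue-restricted variants and 1 gene that is no proteasome part, Psmc3ip, a meiotic recombination factor named for its binding to an ATPase subunit.

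Replicate 1 held 810239 reads and replicate 2 held 587861. A gene with 0 reads could have had up to 3 at this depth, which is 3.70 CPM (reads scaled to a common library total) in replicate 1 and 5.10 CPM in replicate 2. Markers of the adrenal cortex summed to 77322 CPM in replicate 1 and 90942 CPM in replicate 2, and those of the medulla to 6193 and 8495 CPM, with all 11 of these genes detected in both libraries. The 7 macrophage markers summed to 1380 CPM in replicate 1 and 281 CPM in replicate 2, of which Lyz2 alone made up 896 and 100.4 CPM. Of these 7, 5 were higher in replicate 1, while Csf1r, at 19.7 and 81.7 CPM, and Adgre1, at 17.3 and 62.9 CPM, were higher in replicate 2. The 4 antigen-presenting markers summed to 985 CPM in replicate 1 and 102 CPM in replicate 2. The 7 lymphocyte markers summed to 122 CPM in replicate 1, with Cd3e and Ms4a1 at 0, and to 49.3 CPM in replicate 2, with Cd3e, Cd3d, Cd79a and Cd79b at 0. Ighm alone made up 109 and 15.3 CPM of these sums, while Ptprc, at 4.94 and 27.2 CPM, was higher in replicate 2. The 5 endothelial markers summed to 212 CPM in replicate 1 and 665 CPM in replicate 2. By the test described below, Pecam1 and Eng were higher in replicate 2, and Plvap and Kdr were higher in neither library. Cdh5, too thinly read for the test, had 4.94 CPM in replicate 1 and 3.40 CPM in replicate 2. The part of these cells in the results below was not tested, and in bulk tissue fewer cells of a type and less RNA per cell cannot be told apart.

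The proteasome genes took 1.03% of all reads in replicate 1 (95% Clopper-Pearson interval 1.01 to 1.05%) and 0.395% in replicate 2 (0.379 to 0.411%), a mean of 0.711% ± 0.447 (SD, n = 2). Their make-up differed too. In replicate 1 the reads were spread over the complex: of 8321 reads on these genes, alpha ring genes took 21.1%, beta ring genes 26.1%, ATPase genes 16.5% and non-ATPase regulatory genes 25.2%. In replicate 2 the non-ATPase regulatory genes took 74.5% of 2322 reads, the alpha ring 3.01% and the beta ring 3.57%. A single gene, Psmd2, held 1003 of those reads. Each read was taken to stand for 1 cDNA molecule, so levels are not divided by length here. The cDNA preparation is not given, so this could not be checked. How far recovery depends on length is shown further on.

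**Figure D1:**
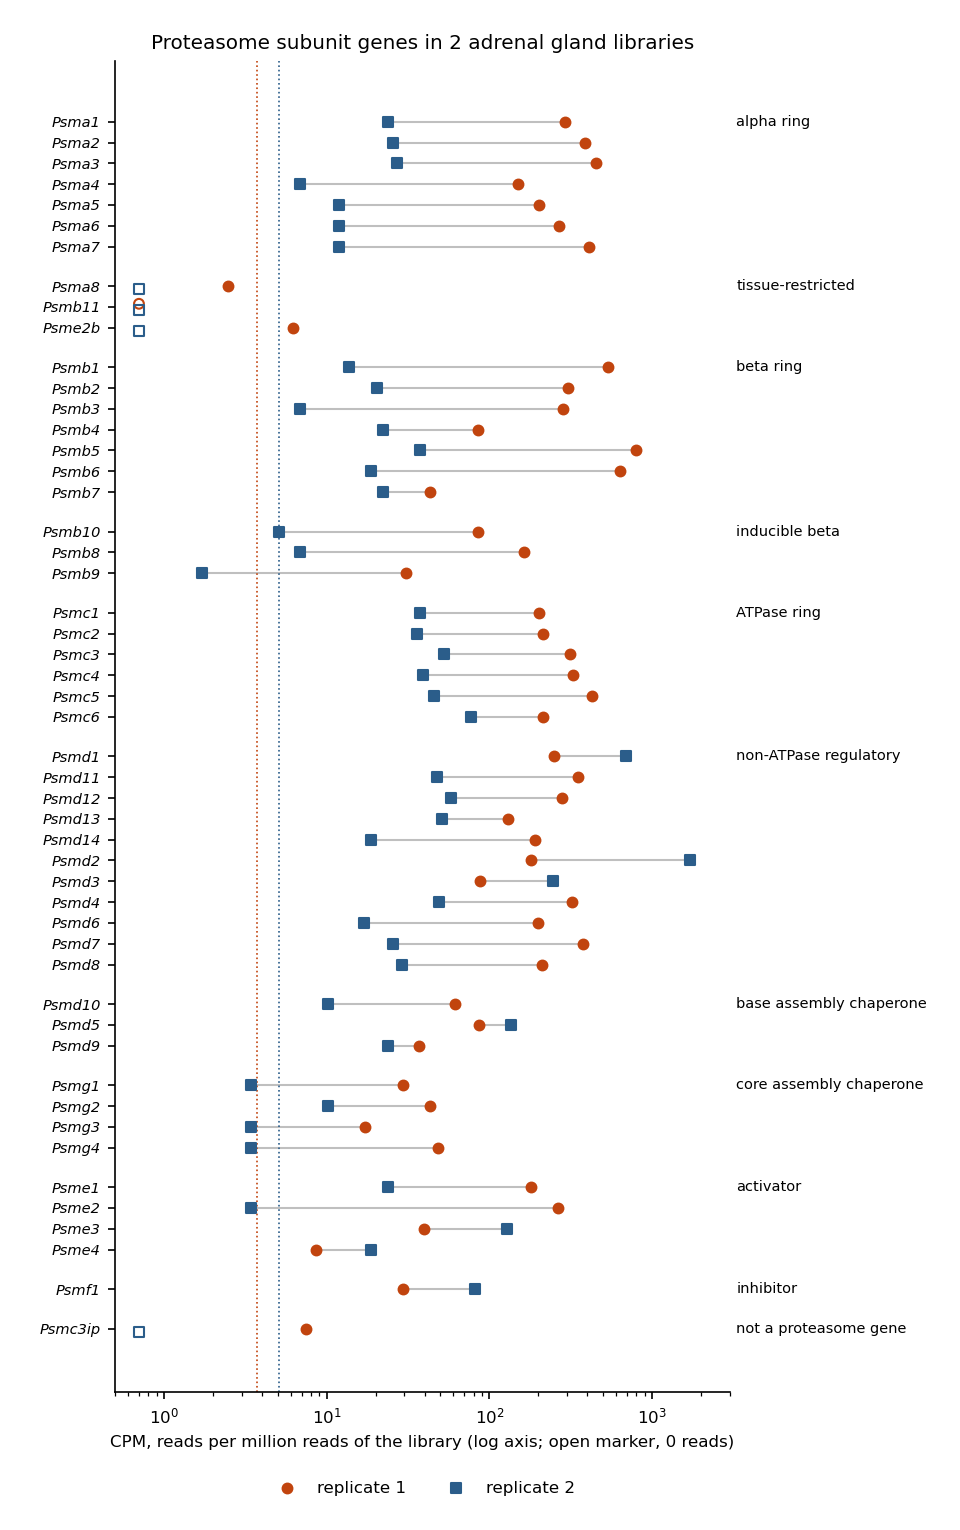
Level of each of the 50 genes in CPM (log axis), grouped by role, with replicate 1 as circles, replicate 2 as squares and open markers for 0 reads; dotted lines mark the CPM that 3 reads stand for in each library. Nearly every gene of the core particle and the ATPase ring lies far higher in replicate 1, while Psmd2, Psmd1, Psmd3, Psme3, Psmd5, Psme4 and Psmf1 lie higher in replicate 2.

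Gene by gene, the reads were compared by an exact two-sided binomial test with TMM-scaled library sizes. That test compares these libraries and their reads, not conditions, and has no replicate check. Of the 46 proteasome genes with at least 10 reads over both libraries, 39 were higher in replicate 1, where the same call was made for 35.6% of all 9809 genes tested, and 5 were higher in replicate 2, where it was made for 30.6% of all genes. The median log2 ratio, replicate 1 over replicate 2, was 3.34 over the proteasome genes and 0.01 over all genes tested. The genes higher in replicate 2 were Psmd2, Psmd1, Psmd3, Psme3 and Psmf1, and neither call was made for Psmd5 and Psme4.

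All 7 alpha ring genes, which build the gate and outer wall of the barrel, were higher in replicate 1. Psma3 (alpha7) had 366 reads in replicate 1 and 16 in replicate 2. Psma7 (alpha4) had 333 reads in replicate 1 and 7 in replicate 2, and Psma2 (alpha2) had 315 and 15. The levels of the 7 genes lay within 3-fold of each other in replicate 1, from 151 CPM for Psma4 to 452 CPM for Psma3, and between 6.80 and 27.2 CPM in replicate 2. Their log2 ratios ran from 4.04 for Psma1 to 5.48 for Psma7. Psma5 and Psma6 had 164 and 218 reads in replicate 1, against 7 reads each in replicate 2.

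The 7 beta ring genes were also all higher in replicate 1, but were less even. Psmb5 on chr14:54614119-54618022, which encodes the chymotrypsin-like subunit beta5, had 643 reads in replicate 1 (794 CPM, rank 156 of all genes) and 22 in replicate 2 (37.4 CPM, rank 4076). Psmb6, which encodes the caspase-like subunit beta1, had 518 reads in replicate 1 and 11 in replicate 2. Psmb7, which encodes the trypsin-like subunit beta2, had 35 reads in replicate 1 and 13 reads in replicate 2. The 3 constitutive catalytic genes therefore stood far apart in replicate 1, at 794, 639 and 43.2 CPM, although their products take equal places in the ring. In replicate 2 they stood at 37.4, 18.7 and 22.1 CPM, each on few reads. Of the non-catalytic genes, Psmb1 (beta6) had 434 reads in replicate 1 and 8 in replicate 2, and Psmb3 (beta3) had 229 and 4. Psmb2 (beta4) had 245 reads in replicate 1 and 12 in replicate 2, and Psmb4 (beta7) had 69 and 13.

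The inducible catalytic genes of the immunoproteasome were detected in both libraries. Psmb8 on chr17 (beta5i) had 132 reads in replicate 1 and 4 in replicate 2, Psmb10 (beta2i) had 69 and 3, and Psmb9 (beta1i) had 25 and 1. All 3 were higher in replicate 1, with log2 ratios of 4.89, 4.32 and 4.10, beside 4.85, 5.50 and 1.40 for the constitutive Psmb5, Psmb6 and Psmb7. As a share of catalytic subunit reads the inducible genes made up 15.9% of 1422 reads in replicate 1 (interval 14.0 to 17.9%) and 14.8% of 54 reads in replicate 2 (6.62 to 27.1%). The pairs differed from each other in replicate 1. There Psmb8 made up 17.0% of the reads of Psmb8 and Psmb5 (14.5 to 19.9%), an interval that contains the 15.9% over all pairs. Psmb9 made up only 4.60% of the reads of Psmb9 and Psmb6 (3 to 6.72%). Psmb10 made up 66.3% of the reads of Psmb10 and Psmb7 in replicate 1 (56.4 to 75.3%) and 18.8% of 16 reads in replicate 2 (4.05 to 45.6%), intervals that did not overlap. For the pairs of Psmb8 and Psmb9 the replicate 2 shares of 15.4% and 8.33% had intervals that contained the replicate 1 values. These intervals cover counting error only, and the shares are not adjusted for length. The most read annotated transcripts of Psmb8 and Psmb5 have 1628 and 899 nt. Those of Psmb9 and Psmb6 have 1352 and 798 nt, and those of Psmb10 and Psmb7 have 1311 and 1160 nt. Of the marker genes given above, 5 of 7 for macrophages and all 4 for antigen-presenting cells were called higher in replicate 1. That call was made for 35.6% of all genes, and for 841 of 976 genes of 1000 to 1500 nt. The median lengths of these marker sets are 1230 and 1218 nt. Csf1r and Adgre1 had the opposite call, as did the lymphocyte marker Ptprc, but not Ighm. With the length trend described below removed, 2 of the 7 macrophage markers kept their call and 5 had none. Their median log2 ratio was then 0.098. Of the 4 antigen-presenting markers, 3 kept their call and Cd74 turned to a replicate 2 call, at -1.37. After the same removal, 21.0% of all genes had a replicate 1 call and 21.3% a replicate 2 call.

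**Figure D2:**
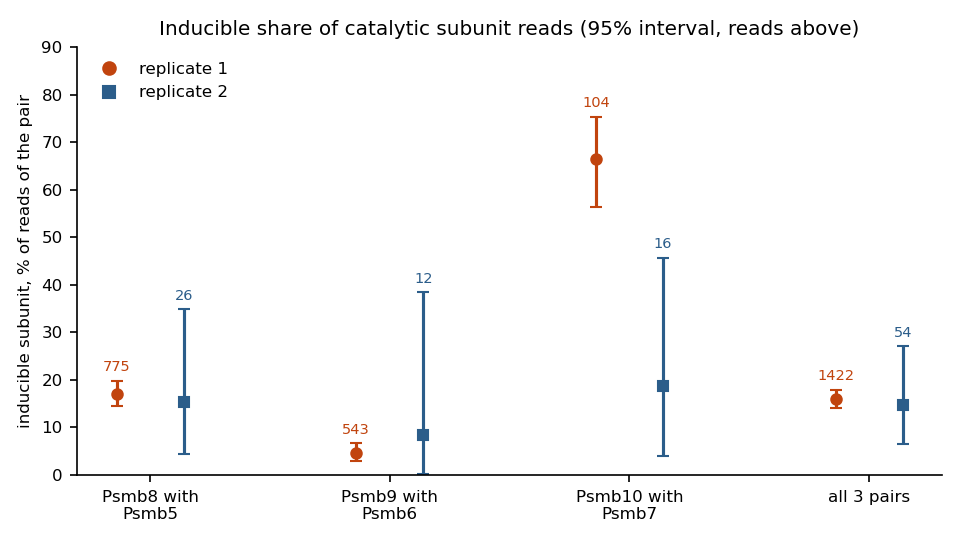
Share of the inducible subunit among the reads of each catalytic pair, and of all 3 pairs, in replicate 1 (circles) and replicate 2 (squares), with 95% Clopper-Pearson intervals and the number of reads above. The share over all pairs is 15.9% and 14.8%; the pair of Psmb10 and Psmb7 alone has intervals that do not overlap.

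The 6 ATPase genes were the most even group. They lay between 202 CPM (Psmc1) and 426 CPM (Psmc5) in replicate 1, a 2.10-fold span, and between 35.7 CPM (Psmc2) and 76.5 CPM (Psmc6) in replicate 2, a 2.14-fold span. All 6 were higher in replicate 1, with log2 ratios from 1.95 for Psmc6 to 3.66 for Psmc5. Psmc5 (Rpt6) had 345 reads in replicate 1 and 27 in replicate 2. Psmc4 (Rpt3) had 265 reads in replicate 1 and 23 in replicate 2, and Psmc3 (Rpt5) had 255 and 31. For Psmc6 (Rpt4) replicate 1 held 174 reads and replicate 2 held 45.

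The 11 non-ATPase regulatory genes divided. Psmd2 on chr16:20651652-20663414, which encodes Rpn1, a large scaffold that docks ubiquitin shuttles, had 146 reads in replicate 1 (180 CPM, rank 927) and 1003 in replicate 2 (1706 CPM, rank 43). It was 6.83-fold higher in replicate 2 (interval 5.74 to 8.18, adjusted p = 6.08e-155 by the exact binomial test). Psmd1 on chr1:86064387-86139151, which encodes the other large scaffold Rpn2, had 202 reads in replicate 1 and 409 in replicate 2, a 2.01-fold difference (1.70 to 2.39) in the same direction. Psmd3 (Rpn3, of the lid) had 71 reads in replicate 1 and 144 in replicate 2, a 2.02-fold difference (1.51 to 2.72). The other 8 were higher in replicate 1. Psmd7 (Rpn8) had 307 reads in replicate 1 and 15 in replicate 2, and its partner in the deubiquitinating pair, the metalloprotease Psmd14 (Rpn11), had 155 and 11. Psmd11 (Rpn6) had 286 reads in replicate 1 and 28 in replicate 2, and Psmd12 (Rpn5) had 228 and 34. Psmd4, which encodes the ubiquitin receptor Rpn10, had 261 reads in replicate 1 and 29 in replicate 2. Psmd6 (Rpn7) had 162 and 10, while Psmd8 and Psmd13 had 171 and 105 reads in replicate 1 against 17 and 30 in replicate 2. The span between the highest and the lowest gene of the group was 4.32-fold in replicate 1 and 100-fold in replicate 2.

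Among the activators, Psme1 and Psme2, whose products form the interferon-inducible PA28 cap together, had 146 and 214 reads in replicate 1 and 14 and 2 reads in replicate 2. The log2 ratio of Psme2 was 6.43, the highest of the 46 genes, and that of Psme1 was 3.34. Psme3, the nuclear PA28gamma, had 32 reads in replicate 1 and 75 in replicate 2 and was 2.33-fold higher in replicate 2 (1.52 to 3.64). Psme4, which encodes the large activator PA200, had 7 reads in replicate 1 and 11 in replicate 2 (adjusted p = 0.545, exact binomial test), a fold of replicate 2 over replicate 1 between 0.553 and 4.75. Psme1 and Psme2 thus made up 90.2% of the activator reads in replicate 1 (86.9 to 93.0%) and 15.7% in replicate 2 (9.24 to 24.2%). This share is not adjusted for the length trend described below. The most read annotated transcripts of Psme1 and Psme2 have 1112 and 962 nt, and that of Psme3 has 2664 nt. Psmf1, which encodes the inhibitor PI31, had 24 reads in replicate 1 and 48 in replicate 2, a 1.99-fold difference (1.19 to 3.39).

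The 4 chaperones of core assembly, Psmg1 to Psmg4, were scarce, with 14 to 39 reads in replicate 1 and 2 to 6 in replicate 2, and all were higher in replicate 1. The base chaperone Psmd10 (gankyrin) had 50 reads in replicate 1 and 6 in replicate 2. Psmd9 had 30 and 14, and Psmd5 had 70 reads in replicate 1 and 80 in replicate 2 (adjusted p = 0.527, exact binomial test), a fold of replicate 1 over replicate 2 between 0.629 and 1.23. The tissue-restricted genes were at or near the floor. Psma8, the alpha subunit of the spermatoproteasome, had 2 reads in replicate 1 and 0 in replicate 2. Psmb11, the beta5 variant of the thymoproteasome, had 0 reads in both libraries. Psme2b, a single-exon copy of Psme2, had 5 reads in replicate 1 and 0 in replicate 2, and reads of such a copy and of Psme2 are hard to tell apart. Psme2b also shares exons on its own strand with 9930111J21Rik1, which had 0 reads in replicate 1 and 8 in replicate 2. How reads were divided between these genes was not tested. Psmc3ip had 6 reads in replicate 1 and 0 in replicate 2.

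Most proteasome transcripts are short, and the ratio between the libraries went with length over the whole transcriptome. The Spearman correlation of the log2 ratio with the length of the most read annotated model was -0.63 over 9173 genes, given as a description, since all points share the same libraries. Over the 45 proteasome genes with such a length it was -0.53, and their median length was 1391 nt, against 2651 nt over all genes tested. All 25 proteasome genes under 1500 nt were higher in replicate 1, as were 778 of 932 genes under 1000 nt and 841 of 976 genes of 1000 to 1500 nt. Of the 11 proteasome genes between 1500 and 2500 nt, 10 were higher in replicate 1 and Psmd3 was higher in replicate 2, while 1116 of 2314 genes of that size were higher in replicate 1 and 287 in replicate 2. Above 2500 nt, 4 of 9 proteasome genes were higher in each library, and 622 and 2542 of 4905 genes. In each of these length classes the median log2 ratio of the proteasome genes lay above that of all genes: 5.16 against 3.99 under 1000 nt, 3.51 against 3.13 up to 1500 nt, 3.01 against 0.93 up to 2500 nt and -0.18 against -1.18 beyond. Within a class the lengths were not matched. In the same order, the median lengths were 871 against 726.5 nt, 1239 against 1270 nt, 1758 against 1994 nt and 2911 against 3662 nt.

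**Figure D3:**
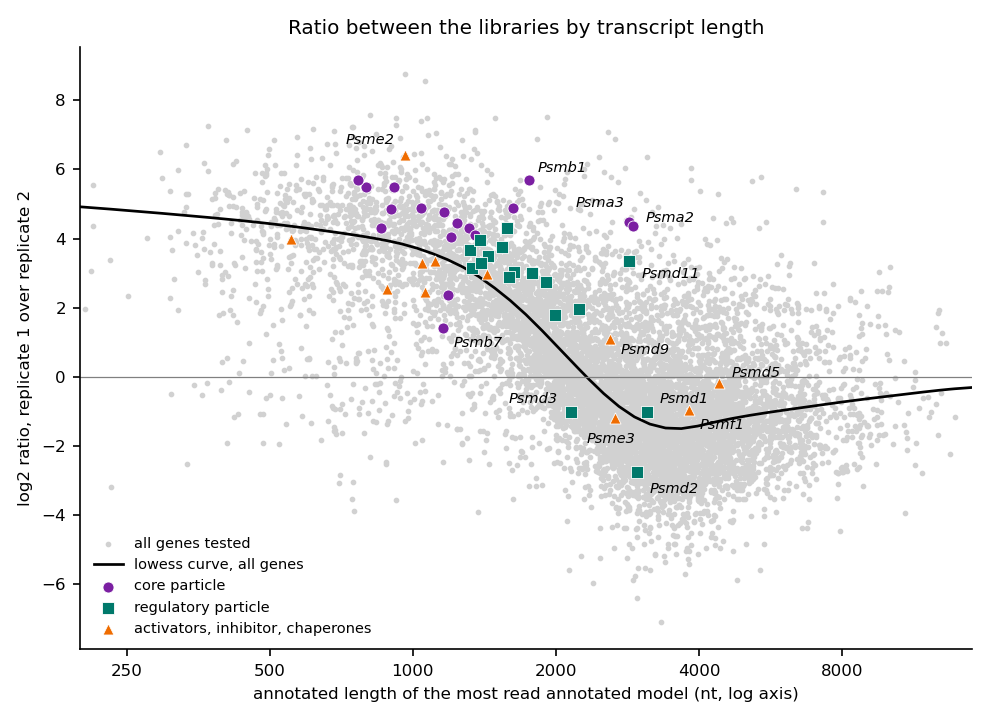
Log2 ratio of replicate 1 over replicate 2 against the annotated length of the most read annotated model (log axis), for all genes tested (grey) and the proteasome genes by part of the complex, with the lowess curve over all genes. Most of the short core particle genes lie above the left shoulder of the curve. Psma2, Psma3, Psmd11 and Psmb1 lie farthest above the curve, and Psmd2, Psmd3 and Psmb7 lie below it.

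With that trend removed, 24 of 45 proteasome genes were higher in replicate 1, where 21.0% of all genes were, 3 were higher in replicate 2, where 21.3% were, and 18 were not called. The median length-adjusted log2 ratio was 0.93, against -0.07 over all genes. Of the 39 genes called higher in replicate 1 before, 22 kept the call, 16 lost it, and Psmb7 turned to a length-adjusted log2 ratio of -2.04. Of the 5 called higher in replicate 2, Psmd2 at -1.57 and Psmd3 at -1.48 kept the call, Psme3 and Psmf1 lost it, and Psmd1 turned to 0.33. The value of Psmd1 rests on the 3112 nt of its annotated transcript. That transcript matched only 3 of 202 reads in replicate 1 and 5 of 409 in replicate 2. The most read models of Psmd1 have 2688 and 2652 nt, so the turn may rest on a length that the molecules did not have. Psmd5 gained a call at 1.11. Among the catalytic genes, Psmb6 at 1.45, Psmb5 at 0.93 and Psmb8 at 2.76 stayed called, while Psmb9 at 1.13 (adjusted p = 0.502, exact binomial test) and Psmb10 at 1.24 (adjusted p = 0.159, exact binomial test) did not. Psme2 stayed called at 2.61 and Psme1 did not, at -0.20. None of the 4 core assembly chaperones stayed called. The other genes called with a length-adjusted ratio of at least 2-fold were all higher in replicate 1: Psma5, Psma6 and Psma7 of the alpha ring at 1.20, 1.19 and 1.59, Psmb3 at 1.59, Psmc2 and Psmc6 at 1.40 and 1.72, Psmd6, Psmd7, Psmd12 and Psmd14 at 1.09, 2.04, 1.51 and 1.37, and Psmd9 at 1.72.

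The 4 highest length-adjusted log2 ratios, 5.54 for Psma3, 5.50 for Psma2, 4.40 for Psmd11 and 3.98 for Psmb1, belong to genes whose annotated 3' end lies far beyond that of other read models. Among the unannotated spliced models of Psma2 that reach the last exon, 10 of 11 reads end 2132 nt before the annotated end, which leaves 779 of 2911 nt. For Psma3, 19 of 21 such reads end 1846 nt early, for Psmd11 all 15 end 1339 nt early, and for Psmb1 5 of 6 end 938 nt early. The same holds for Psmd5, where all 26 reads end at least 500 nt early, and 10 of them 2368 nt early, and for Psmc6, where 15 of 16 end at least 500 nt early. In Psma3, Psmd11, Psmb1 and Psmd5 the most used early end is also the end of another annotated model, but not in Psma2 and Psmc6. For Psmd11 the annotated Psmd11-214, with 59 reads in replicate 1 and 7 in replicate 2, ends there. The length of the reads assigned to an annotated model is not in the files, so the expected ratio of these genes may rest on a length that the molecules did not have. With coding length in place of model length, 31 proteasome genes were called higher in replicate 1, 22 of them the same genes, where 23.6% of all genes were, and 3 in replicate 2, of which Psmd2 alone was shared, where 26.3% of all genes were.

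**Figure D4:**
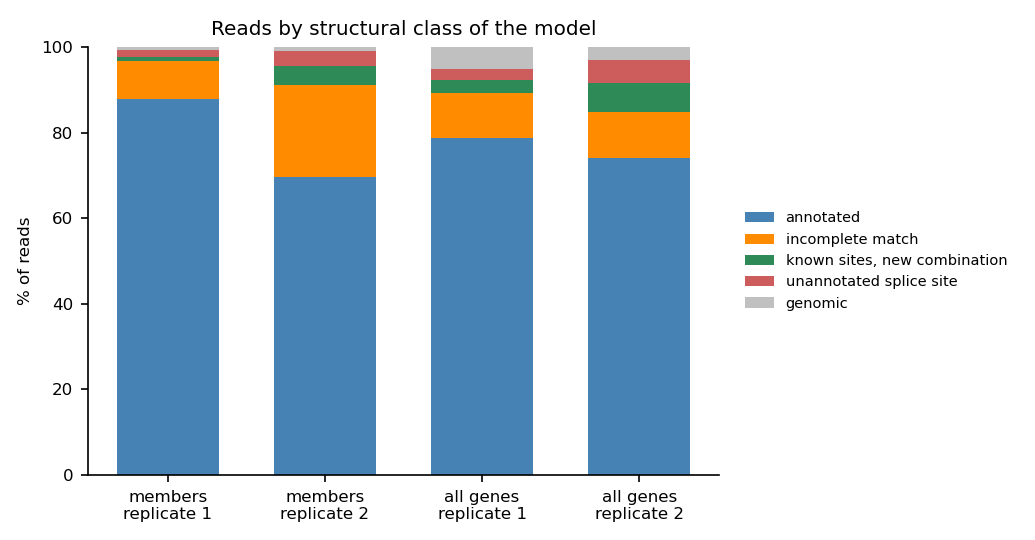
Share of reads by structural class of their model, for the proteasome genes and for all annotated genes, each in replicate 1 and replicate 2. Annotated models hold 88.0% of the proteasome reads in replicate 1 and 69.6% in replicate 2, where incomplete matches make up 21.4%.

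Of the reads on proteasome genes, 88.0% in replicate 1 (87.2 to 88.7%) and 69.6% in replicate 2 (67.7 to 71.5%) matched an annotated model from its first to its last junction. Over all genes the shares were 78.7% in replicate 1 and 74.1% in replicate 2. Incomplete matches, which hold part of the junctions of an annotated transcript, made up 8.77% of proteasome reads in replicate 1 and 21.4% in replicate 2, against 10.5% and 10.8% over all genes. Without Psmd1 and Psmc2, picked after their values were seen, the incomplete share was 4.73% in replicate 1 and 4.92% in replicate 2. The most read model was an annotated one in 45 of the 49 genes with reads, the exceptions being Psmd1, Psmc2, Psme4 and Psma8. For Psme4 that model, a 13-exon incomplete match, held 1 read in each library, and for Psma8 an unannotated combination held 1 of its 2 reads.

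Psmd1 was read mostly as molecules that stop before the end of the gene. The annotated transcript Psmd1-201 has 25 exons and 3112 nt, and matched 3 of 202 reads in replicate 1 and 5 of 409 in replicate 2. A model of its first 22 exons held 123 reads in replicate 1 (60.9%) and 298 in replicate 2 (72.9%). A model of its first 21 exons, ending at chr1:86130729, held 40 reads in replicate 1 and 81 in replicate 2. The shorter one stops at position 2652 of the transcript, 460 nt before its end. Its last exon, coding and on the plus strand (chr1:86130637-86130729, mm10), is shown because it is rich in A where the model stops. Capitals mark the 20 bases with the most A, 16 of them, and the model stops 2 bases after these. In the transcript, the 20 bases that follow the stop hold 1 A.
Psmd1 exon 21: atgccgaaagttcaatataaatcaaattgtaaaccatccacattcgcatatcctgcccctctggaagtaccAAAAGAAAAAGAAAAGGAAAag

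Across the most read annotated transcripts of 46 other proteasome genes, 31 of 73882 windows of 20 bases held 18 or more A, in 3 transcripts: Psmd11, Psmd12 and Psma3. In Psmd11 the early end named above, at position 1509 of 2848 in its last exon, lies directly before such a stretch, with 18 A in the next 20 bases. In Psma3 and Psmd12 the early ends at positions 1000 and 1464 do not, with 7 and 4 A in the next 20 bases. The other incomplete models that lack the 3' end and had at least 5 reads in a library, in Psmc3, Psmd2, Psma2, Psmd12 and Psma3, had at most 12 or 13 A in any 20 bases within 50 nt of their end. At least 12 A are found that near to 10.6% of all positions in these transcripts, and at least 16 A near to 0.485%. The 21-exon end of Psmd1 and the Psmd11 end coincide with an exon edge and an end already annotated, so the ends in the files may have been drawn to them. Whether the A stretches bear on the ends was not tested.

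Psmc2, the ATPase Rpt1, differed from its annotation at the other end. Models that start at exon 2 (chr5:21786650-21786884) held 162 of its 172 reads in replicate 1 and 19 of its 21 reads in replicate 2. The junction from exon 1 (chr5:21785283-21785517) was read 0 times in replicate 1 and 1 time in replicate 2. The annotated coding start lies at 21786689, inside exon 2 and past the start of these models. RefSeq places a transcription start of the gene at 21785275 and another at 21786747, which lies past that coding start. The models start at the annotated exon edge, to which starts in the files may have been drawn. Whether the molecules hold the whole coding sequence is therefore not known.

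The share of the leading model, the one most read over both libraries, could be tested in 30 proteasome genes by Fisher's exact test. It differed between the libraries in 14, which is to be read against 28.6% of all 4733 genes tested. In 12 of the 14 the leading share was higher in replicate 1, and in Psmd1 and Psmd2 it was higher in replicate 2. Each of the 14 had more reads in the library where the share was higher. That library weighed more in the pick of the leading model, so the direction can follow from the pick alone. Over all genes called, 45.5% had the higher share in replicate 1. Psmb6-201 held 98.1% of the reads of Psmb6 in replicate 1 and 54.5% of 11 in replicate 2. Psmb4-201 held 89.9% in replicate 1 and 46.2% of 13 in replicate 2, and Psmd14-201 held 92.9% and 54.5% of 11. The leading shares of Psma2, Psmc3, Psmc4, Psmc5, Psmc6 and Psmd13 were 86.7 to 95.6% in replicate 1 and 66.7 to 82.2% in replicate 2. Psmd2-201 held 73.3% in replicate 1, where a 15-exon incomplete model held 10.3%, and 89.3% in replicate 2. Psma7 was too thinly read in replicate 2 for the test: Psma7-201 held 270 of 333 reads in replicate 1 and 0 of 7 in replicate 2, where annotated models together held 2. With at least 20 reads asked of each library, 8 of 17 genes differed, beside 35.5% of all genes so tested. Over annotated models alone 2 of 15 did, Psma3 and Psmb2, beside 9.54% of all genes. Of all reads of Psma3, Psma3-202 held 77.9% in replicate 1 and 37.5% of 16 in replicate 2. Of its reads on annotated models it held 285 of 316 in replicate 1 and 6 of 11 in replicate 2. In Psmb2 the coding Psmb2-201 had 229 reads in replicate 1 and 5 in replicate 2, while the non-coding Psmb2-203 had 3 and 6.

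Psmd4 was read as 2 annotated coding isoforms that differ at the end of exon 7 (chromosome 3, minus strand). Psmd4-202 had 151 reads in replicate 1 and 6 in replicate 2, or 57.9% and 20.7%, and Psmd4-201 had 90 and 11, or 34.5% and 37.9%. The exon of Psmd4-201 runs on for 9 bases, shown in capitals, in a stretch that spans chr3:95033735-95033947 in both.
Psmd4-201: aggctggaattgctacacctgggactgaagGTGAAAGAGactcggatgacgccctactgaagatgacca
Psmd4-202: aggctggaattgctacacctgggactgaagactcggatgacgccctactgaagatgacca

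Psmg4, which encodes the core chaperone PAC4, was read in about equal parts with and without its exon 2. Psmg4-202 had 20 reads in replicate 1 and 1 in replicate 2, and Psmg4-201, which skips the exon, had 19 and 1. The 76 bases of the exon are shown in capitals with 20 bases of its neighbours on each side. They are no multiple of a codon, and the whole stretch, introns left out, lies in chr13:34163230-34178000 on the plus strand.
Psmg4-202: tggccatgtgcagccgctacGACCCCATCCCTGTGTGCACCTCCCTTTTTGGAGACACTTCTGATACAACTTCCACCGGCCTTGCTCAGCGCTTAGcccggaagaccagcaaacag

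Of the 50 genes, 42 had a promoter window in RefSeq (GRCm38.p6, 250 bases before to 50 after the start), 45 windows in all. The ETS core GGAAGT, on either strand, was in 48.9% of these windows and in 23.8% of all 32851 windows. The interferon-stimulated core, GAAA repeated after any 2 bases, was in 11.1% of them and 3.44% of all, and its 5 genes were Psmb3, Psmd4, Psmd9, Psme1 and Psmg4. The antioxidant response core TGACNNNGC, the kind of element bound by the proteasome's transcriptional activator Nfe2l1, was in 13.3% of the windows and 12.4% of all. CCAAT was in 33.3% and 37.4%, TTCNNNGAA in 6.67% and 8.30%, and TATAAA in 8.89% and 13.6%. Shown, with the match in capitals, are the antioxidant cores of the catalytic genes Psmb5 (chr14:54618022-54618054, minus strand) and Psmb6 (chr11:70525336-70525368, plus strand), and the ETS core of Psmd8 (chr7:29180673-29180702, minus strand), which matches on the other strand. A match is a description of the letters and says nothing about binding.
Psmb5: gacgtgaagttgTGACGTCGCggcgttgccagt
Psmb6: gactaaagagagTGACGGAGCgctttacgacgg
Psmd8: tggagcgaacggACTTCCgttcgccatttt

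Genes of the pathway outside the name rule were called in both directions. Of 21 tested partners of the proteasome, 8 were higher in replicate 1, 8 higher in replicate 2 and 5 not called, beside 35.6% and 30.6% of all genes. Their median log2 ratio was -0.52 and the median length of their models 3169 nt, against 1391 nt for the proteasome genes. With the length trend removed, 7 partners were higher in replicate 1, 7 higher in replicate 2 and 7 not called, where 21.0% and 21.3% of all genes were called, and the median turned to 0.65, beside 0.93 for the proteasome genes. The subunits Adrm1 and Sem1 and the assembly factor Pomp were called higher in replicate 1. Adrm1, the ubiquitin receptor Rpn13, had 246 reads in replicate 1 and 29 in replicate 2, Sem1, the smallest lid subunit, had 174 and 4, and Pomp, the maturation factor of the core, had 409 and 13. With the length trend removed their log2 ratios were 0.65, 2.67 and 2.65, all still called. Nfe2l1, the transcription factor that drives proteasome genes when the complex is short, had 36 reads in replicate 1 and 387 in replicate 2, and its log2 ratio was -3.40 before and -2.17 after the trend was removed. Of 12 class I antigen processing genes tested, 2 were higher in replicate 1, 9 higher in replicate 2 and 1 was not called, to be read against the same 35.6% and 30.6% of all genes, with a median of -1.19. With the trend removed, 1 was higher in replicate 1, 9 were higher in replicate 2 and 2 were not called, with a median of -1.32. The peptide transporter genes Tap1 and Tap2 had 14 and 11 reads in replicate 1 against 149 and 94 in replicate 2, with length-adjusted log2 ratios of -2.17 and -1.54. B2m, the light chain of class I molecules, had 1214 reads in replicate 1 and 90 in replicate 2, and its log2 ratio of 3.75 became -0.22 with the trend removed.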

How the data were processed

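Each library came as a deposited table of unscaled read counts by transcript model, which lists only models that were read. TALON, which assigns reads to annotated or unannotated transcripts, built these models separately per library, per the file headers, using the mm10 genome and GENCODE M21, per the notes deposited with each library. Other values in the deposited model annotations, positions and classes among them, are those of the authors. The aligner, read correction, platform, cDNA preparation and how read strand was set are all not given in the sources used. Of the genes, 12 share exons with a gene on the other strand and 4 with a gene on the same strand. Only 1 same-strand partner had reads.

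All models of a gene were added up, and CPM were computed over all 810239 and 587861 reads. Each gene with at least 10 reads was tested by the exact two-sided binomial test, with TMM-scaled library sizes (edgeR 4.0.16), Benjamini-Hochberg adjustment over all genes and a threshold of 0.05. The quasi-likelihood test has no contrast in a single group. Ratios used a pseudocount of 0.5 reads. Folds are ratios of TMM-scaled counts, so they differ from ratios of CPM by a constant factor. The length trend was a lowess curve (span 0.3, genes with at least 20 reads). Leading models were compared by Fisher's exact test where both libraries gave the gene at least 10 reads. Intervals are Clopper-Pearson at 95% and cover counting error only, as do floors. The steps were tested on simulated data. DESeq2 size factors (1.42.0), total counts, other read minimums, annotated or spliced models alone, other lengths and a wider span were tried as alternatives.

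The genes, lists, tests and named genes were chosen with earlier results of these data known, and coding length was added after these values were seen. Genes named were those among the 15 highest by mean CPM, the catalytic, activator and tissue-restricted genes, those called against the majority, called at 2-fold or more after length adjustment or with a differing or unannotated leading model, and 7 pathway genes. A planned comparison of protein sequences was not run. Exon sequences are from the GENCODE M21 transcripts. The sequence of 1 exon is not reported here.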

Additional observations from a re-analysis of the deposited data

Results flagged for a closer look

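Models on the strand opposite to a gene, which enter no count above, exceeded the 3 reads that a count of 0 allows at 2 of the genes. At Psmc2, 15 reads in replicate 1 and 3 in replicate 2 fell on unspliced antisense models between chr5:21786884 and 21792068, beside 172 and 21 reads on the gene itself. At Psmd11, 4 reads in replicate 1 and 1 in replicate 2 fell on antisense models, 1 of 5 of them spliced, beside 286 and 28 reads on the gene. There are no control samples to set them against.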

How the results depend on the processing

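No paired analysis was possible because the study has 1 group. The calls compare 2 libraries without a replicate check, and genes with few reads in replicate 2, most of the core particle among them, have wide intervals. Other scalings, minimums and model sets, under which 38 to 49 of the genes could be tested, called 32 to 40 higher in replicate 1 and 4 to 6 higher in replicate 2, beside 21.4 to 45.4% and 17.4 to 40.4% of all genes. Total counts moved the median of all genes to -0.46, and 43.2% of all calls were then higher in replicate 1, against 53.8%; Psmb7 and Psmd9 lost their calls and Psmd5 gained one. With spliced models alone the ratio of Psmd5 turned to 0.10 and Psmf1 lost its call. Differing leading models numbered 14, but 8 with at least 20 reads in each library and 2 over annotated models alone; fewer genes were tested in both. The length-adjusted values depended most on the length taken. With coding length Psmf1 turned to -2.70, Psmd9 to -1.15, Psmb4 to 0.58, Psmg4 to 0.45, Psme1 to 1.40, Psmg1 to 1.78 and Psmg2 to 0.66, Psmb7, Psmd3, Psmd5 and Psmd9 lost their calls, 9 genes gained one as higher in replicate 1, and Psme3 and Psmf1 did as higher in replicate 2. With a span of 0.6 Psme1 turned to 0.036 and Psmd1 lost its call at 0.07, while Psma1 at 0.94, Psma4 at 1.59, Psmc5 at 0.85 and Psmc1 at 0.79 gained one as higher in replicate 1. Taking 1 library at a time gave 0.395 to 1.03% of reads on the genes, 14.8 to 15.9% inducible and 69.6 to 88.0% on annotated models. The causes were not tested.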

Other observations

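The 4 non-coding genes and pseudogenes under the same name starts, such as Psmb6-ps, had 0 reads in both libraries. The gene on the other strand that shares exons with Psmb9, Tap1, had 149 reads in replicate 2, against 1 for Psmb9. Emc9, which shares exons with Psme1 on the other strand, had 50 reads in replicate 1 and 2 in replicate 2, and Sirt3, which does so with Psmd13, had 29 and 5. Nek6, which does so with Psmb7, had 13 reads in replicate 1 and 36 in replicate 2, beside 35 and 13 for Psmb7.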
